A study of Mus musculus with 14 samples.

Results

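RNA profiles of 5 mammary tumors from MMTV-neu mice were set against 3 pools of wild-type mammary gland, the members being the arrays that the labels title as tumors 22, 24, 26, 50 and 52 and as wild-type pools 40, 41 and 42. These are 8 of the 14 arrays of the series, and the other 6 (4 of gland beside a tumor and 2 of a second tumor set) entered the statistical model only to estimate the spread. Pool 40 was gland from mice of 31 weeks with 87.5% FVB and 12.5% CF-1 background, and pools 41 and 42 were gland from mice of 41 weeks with 97% FVB and 3% CF-1 background. Each pool held RNA of 5 mice, while the sources used here give neither an age nor a strain for the tumor mice. The tumor mice carry neu as a transgene under the promoter of a mammary tumor virus (MMTV), and no other agent or allele is named. The labels do not say whether the tumors came from separate mice, so a p-value here speaks only of how much these arrays vary, which may be technical.

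The neu gene encodes a receptor tyrosine kinase of the ErbB family that pairs with other members of its family and signals through RAS and MAP kinase and through PI3 kinase and AKT. The virus promoter is active in the secretory epithelium of the mammary gland, so the transgene acts in luminal cells, and the tumors that arise are solid and rich in epithelium. A resting gland is mostly fat with thin ducts, vessels, nerve, muscle and immune cells, so the 2 kinds of tissue differ in makeup as well as in cell state. The transgene's own receptor was not analysed here.

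Values are intensities of 1-color oligonucleotide arrays on a linear scale, and they can be compared between arrays for 1 probe set but not between probe sets. Values below a floor of 101 were raised to it before log2 was taken, so a difference that rests on such values is a lower limit. A gene was called where its adjusted p was under 0.05. Of 8616 probe sets tested, 2574 were called, which is 29.9%. Of 6397 genes, 1013 were called higher in the tumors (15.8%) and 943 lower (14.7%), and these shares are the background against which each gene list is read. The falls were larger than the rises: 344 genes were called lower and at least 4-fold down, against 132 called higher and at least 4-fold up, while the median over all genes was a log2 difference of 0.13. Every tumor lay above every pool for 1202 genes (18.8%) and below every pool for 1090 genes (17%). Genes of fat, fibroblasts and matrix, basement membrane, vessels and muscle made up 116 of the genes called lower (156 were tested), and the remaining 827 lay outside those lists.

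Several features of the arrays move with the comparison and apply to all of the results. White adipocyte markers were called lower for 34 of 35 genes (median -3.83) and endothelial markers for 18 of 23 (median -1.95). Skeletal muscle markers were called lower for 20 of 29 and higher for 1 (median -3.00). In contrast, luminal markers were called higher for 14 of 24 and lower for 2 (median 1.04). Krt18, a luminal keratin, read 21664, 17757, 21870, 24467 and 42223 in the tumors and 12094, 8833 and 10004 in the pools, but Krt19, another, read 252, 1275, 35, 47 and 25 in the tumors and 9961, 12728 and 10848 in the pools (-5.78 ± 0.64; -2.74 by another probe set); the basal keratins Krt5 and Krt14 did not pass the filter on low values in either tissue. Fewer cells of a type and less RNA per cell cannot be told apart in such tissue RNA. The 3' to 5' signal of the control transcript Actb, a measure of RNA integrity, was 0.08 to 0.76 (log2) in the tumors and 0.90 to 1.51 in the pools. For Gapdh it was -0.25 to 0.43 in the tumors and 0.17, 0.11 and 1.48 in pools 40, 41 and 42, so by that control pools 40 and 41 lay within the tumor range. The part of RNA integrity in the results was not tested.

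Array lot moves with the groups as well. Tumors 22, 24 and 26 were of 1 lot and tumors 50 and 52 of another, and by the lot numbers as labelled neither held a pool. The number of the second (2004097) and that of pool 40 (2004907) differ by swapped digits and may stand for the same lot, so that a fit with both joined was also made. With lot as a fixed block the comparison runs through the gland beside the tumors, from tumors 22, 24 and 26 to gland of their own lot and from other such gland to pool 40. That fit called 100 genes higher (1.56%) and 179 lower (2.8%). The direction was kept by 1855 of the 1956 genes called without the block, and 260 of them were called again in the same direction. With the lots joined 295 genes were called higher and 428 lower, 1949 of the 1956 kept their direction and 683 were called again in the same direction. Lists are described by counts and medians, and no test was made of a list.

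**Figure D1:**
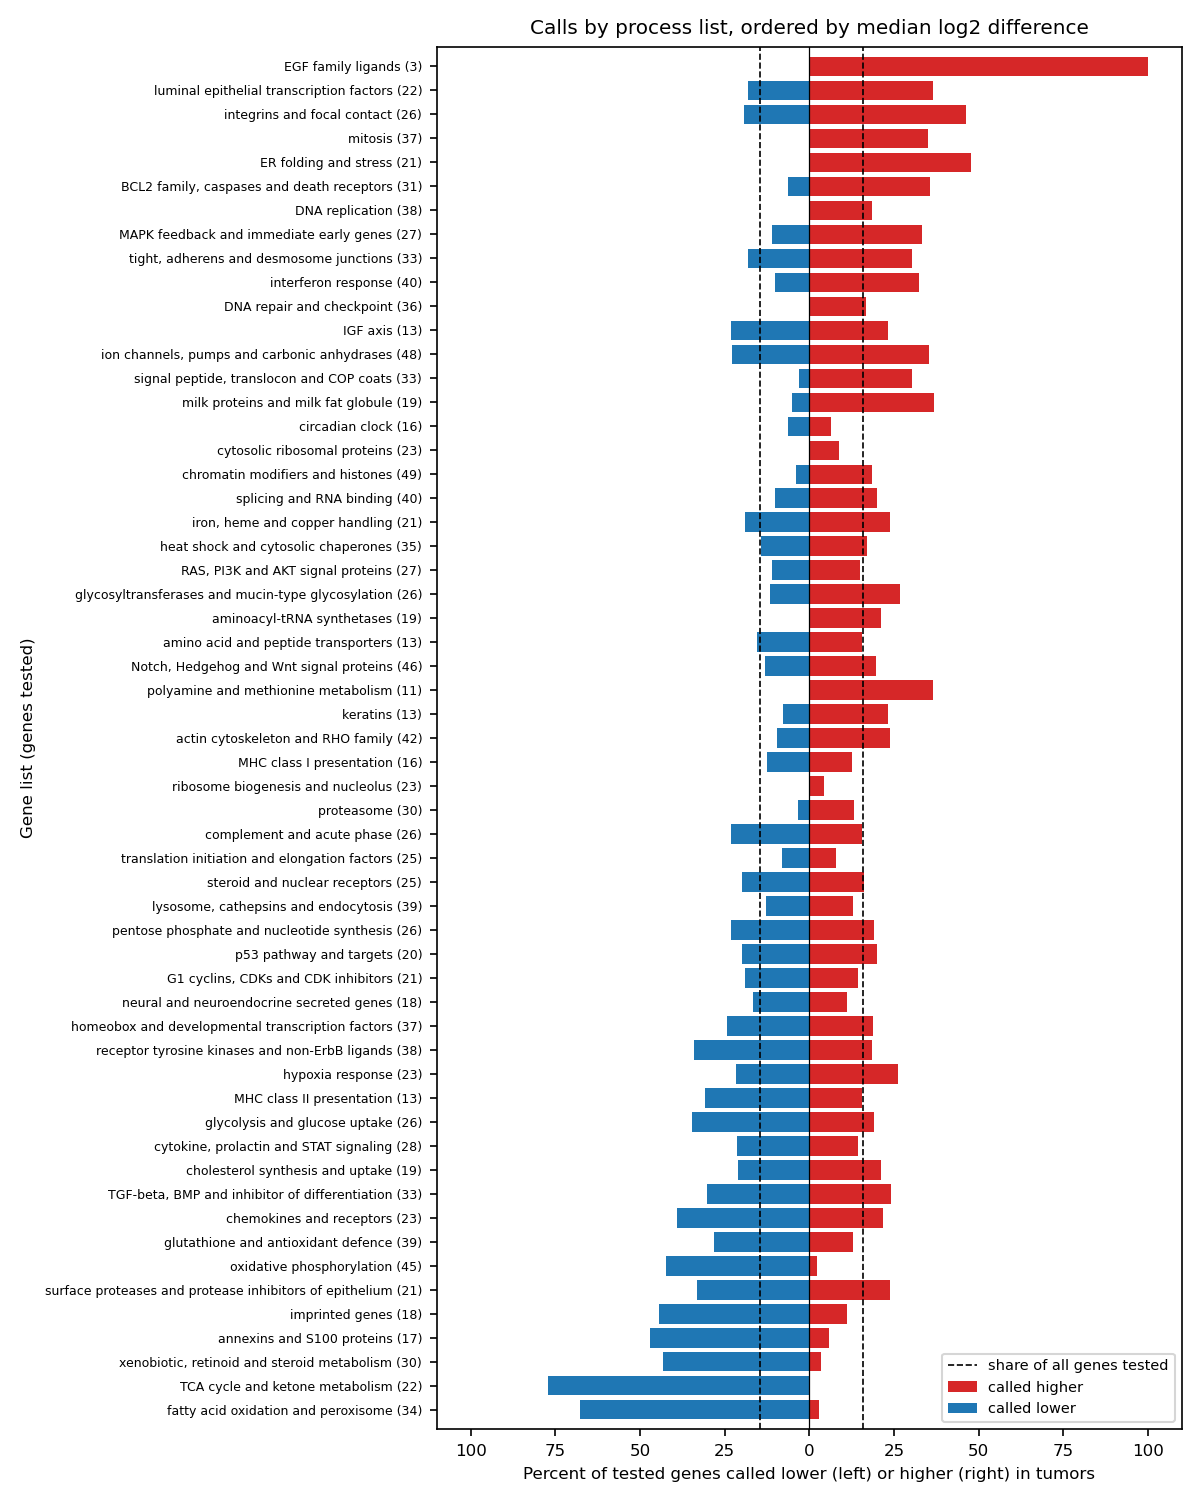
Each bar pair shows, for 1 process list, the percent of its tested genes called lower (blue, left) and higher (red, right) in the tumors, with the number of genes tested in brackets; dashed lines mark 14.7% and 15.8%, the shares among all genes. The lists are ordered by median log2 difference, from the 3 EGF family ligands at the top to fatty acid oxidation at the bottom, where 67.6% of the genes were called lower.

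Among the largest single rises were enzymes, surface proteins and signal proteins of epithelium. Acsl4 activates arachidonic and other polyunsaturated fatty acids by joining them to coenzyme A. Its intensity was 25540, 16660, 26038, 17687 and 20991 in the tumors and 1293, 1038 and 852 in the pools, a log2 difference, tumors minus pools, of 4.33 ± 0.27 (± standard error; values in brackets below are on the same scale). No tumor came near a pool. Tspan8, a tetraspanin of epithelial surfaces, read 7803, 5470, 5782, 5388 and 5939 in the tumors and 362, 288 and 280 in the pools (4.29 ± 0.45). Ier3, an early-response gene that MAP kinase signaling induces and whose protein prolongs ERK activity, was at 26016, 18882, 20413, 35703 and 40116 in the tumors and 1556, 1588 and 1552 in the pools (4.11 ± 0.42). Epha2, an ephrin receptor tyrosine kinase, gave 5406, 800, 4109, 7638 and 4432 in the tumors and 205, 142 and 283 in the pools (4.15 ± 0.79) with tumor 24 the lowest tumor. Kcnn4, a calcium-activated potassium channel, stood at 32932, 19170, 39407, 35471 and 32125 in the tumors and 3401, 3107 and 2704 in the pools (3.34 ± 0.33), without overlap.

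Further rises of this size included matrix, nutrient and signal genes. Col9a1, a chain of a collagen best known from cartilage, had 11096, 11121, 15292, 32306 and 18824 in the tumors and 1129, 1106 and 864 in the pools (3.99 ± 0.36), and tumor 50 was highest. Flvcr2, a membrane transporter of the major facilitator family, was 14.7-fold higher (3.88 ± 0.43), Tpd52l1, a coiled-coil protein of vesicle traffic, 12.9-fold (3.69 ± 0.34), and Aass, the first enzyme of lysine breakdown, 12.5-fold (3.64 ± 0.33). A2m, a broad protease inhibitor, was at 3785, 1070, 825, 1248 and 1622 in the tumors and 13, 35 and 124 in the pools, where 2 of the pools lay under the floor (3.75 ± 0.65). In all 5 tumors each of these genes was above all 3 pools. Under the lot block the differences of these 10 genes lay between 2.45 (A2m) and 5.24 (Epha2), and Acsl4, Tspan8, Ier3, Col9a1, Tpd52l1, Aass and Kcnn4 were called again, whereas Epha2, Flvcr2 and A2m were not.

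Amy1, an amylase, had the largest fall outside the fat, stroma, vessel and muscle lists (-6.64 ± 1.08) and was at the floor in every tumor, so that its 100-fold difference is a lower limit; it was not called with lot as a block. Cdo1 oxidises cysteine to the precursor of taurine and is abundant in fat and liver. It read 234, 477, 332, 292 and 393 in the tumors and 28216, 28262 and 37328 in the pools (-6.53 ± 0.22). Gnai1, an inhibitory G protein subunit that lowers cyclic AMP, was at 70, 302, 96, 59 and 92 in the tumors and 6800, 7023 and 7810 in the pools (-5.83 ± 0.35, but -3.47 by another probe set), so that 4 tumors lay under the floor. Slc1a5, the main glutamine carrier of many growing cells, gave 312, 172, 438, 374 and 650 in the tumors and 9764, 13429 and 16133 in the pools (-5.17 ± 0.34), with every tumor far below the pools. In contrast Slc7a5, the large neutral amino acid carrier that exchanges glutamine for leucine, read 5687, 7140, 3656, 8470 and 5166 in the tumors and 2581, 2226 and 2200 in the pools (1.31 ± 0.24).

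Several of the other large falls belong to genes outside the fat lists that are also known from fat cells or plasma. Aoc3, an amine oxidase of the cell surface, fell 45.6-fold (-5.51 ± 0.40), Mrap, which carries the melanocortin receptor to the surface, 40.6-fold (-5.34 ± 0.43), and Art3, an ADP-ribosyltransferase family member, 41.2-fold (-5.37 ± 0.37). Orm1, an acute-phase glycoprotein, was 59, 84, 84, 47 and 24 in the tumors and 4592, 5359 and 7460 in the pools (-5.81 ± 0.37): it was one of 8 genes at the floor in every tumor and above the 80th percentile of all values in every pool, and so its 56-fold difference is a lower limit. No gene showed the reverse pattern. Igfbp6, which binds IGF-II, fell 30.6-fold (-4.94 ± 0.33), and it was low in all 5 tumors. In the lot-blocked fit Cdo1, Gnai1, Slc1a5, Aoc3, Mrap, Art3, Orm1 and Igfbp6 were called again, and Slc7a5 was not (1.02).

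**Figure D2:**
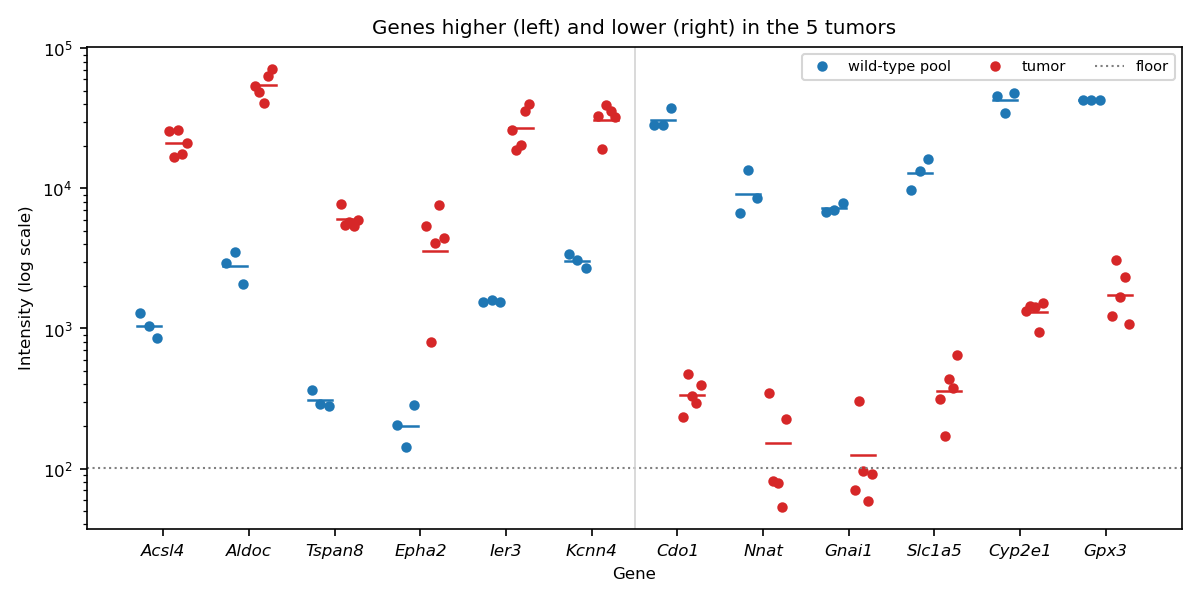
Intensity on a log axis for 6 genes higher and 6 genes lower in tumors, 1 point per array (red, 5 tumors; blue, 3 wild-type pools), with a bar at each group's geometric mean after the floor (dotted line, 101). The groups are separate for all 12 genes; tumor 24 is the low tumor for Epha2 (800), and 4 tumors of Gnai1 lie under the floor.

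Genes of the mitochondrial fuel pathways were lower in the tumors. The TCA cycle burns acetyl units and feeds electrons to the respiratory chain, and 17 of 22 genes of this list were called lower and 0 higher, with a median log2 difference of -1.13. Cs, citrate synthase at the entry of the cycle, read 4056, 5008, 4733, 5103 and 3932 in the tumors and 12786, 15158 and 16760 in the pools (-1.71 ± 0.18). Sdha, the catalytic subunit of succinate dehydrogenase, gave 764, 832, 749, 978 and 1052 in the tumors and 3631, 2894 and 3343 in the pools (-1.92 ± 0.27). Every tumor was below every pool for both. Acly, which turns exported citrate into acetyl-CoA for fat synthesis, fell 5.31-fold (-2.41 ± 0.48), and Me1, which makes NADPH for the same purpose, 3.04-fold (-1.60 ± 0.37).

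Fatty acid oxidation and peroxisomal genes showed the same direction. Of 34 genes, 23 were called lower and 1 higher (median -1.22). Hadhb, a subunit of the trifunctional protein that carries out beta-oxidation, was 3824, 3847, 4191, 5193 and 5018 in the tumors and 25077, 27228 and 29100 in the pools (-2.63 ± 0.34), a separation of all tumors from all pools. Decr1, which handles unsaturated chains, fell 5.79-fold (-2.53 ± 0.27), Slc27a1, a fatty acid carrier, 23-fold (-4.52 ± 0.39), and Abcd2, a peroxisomal fatty acid carrier at the floor in every tumor, at least 33.8-fold. Acot8, a peroxisomal thioesterase, was the single gene called higher (1.14 ± 0.27).

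The respiratory chain moved less. Of 45 genes of oxidative phosphorylation 19 were called lower and 1 higher (median -0.52). Cox6a2 and Cox8b, subunits found mainly in muscle and brown fat, fell furthest (-3.98 ± 0.89 and -2.85 ± 0.36), while the more widely used Uqcrq (-1.48 ± 0.23) and Cycs, cytochrome c (-1.43 ± 0.30), fell less. Ndufa1, a small subunit of complex I, was the single rise, with 647, 900, 623, 639 and 623 in the tumors and 174, 123 and 378 in the pools (1.76 ± 0.51), a call lost without pool 40 or pool 41. The count of lower genes was 11 without pool 41 and 10 without pool 42. Once lot was fitted, the medians were -0.55 for the TCA cycle, -0.65 for fatty acid oxidation and 0.07 for oxidative phosphorylation, so that the last changed sign (it was -0.37 with the similarly numbered lots joined); 0, 5 and 1 of their genes were called lower. The white adipocyte list, which shares Acly and Me1 with the TCA list, fell by a median of 3.83, and the part of fat and muscle loss in these falls was not tested.

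Glucose genes moved both ways. Of 26 genes 5 were called higher and 9 lower (median -0.13). Aldoc, the aldolase form of brain and some epithelia, rose, with 53720, 49174, 40862, 63459 and 71353 in the tumors and 2935, 3518 and 2065 in the pools (4.30 ± 0.53). Slc2a1, the glucose transporter of growing and many epithelial cells, read 1753, 1420, 2433, 2434 and 3219 in the tumors and 346, 636 and 453 in the pools (2.22 ± 0.35), while Slc2a4, the insulin-driven transporter of fat and muscle, read 106, 364, 119, 651 and 648 in the tumors and 3724, 5941 and 7067 in the pools (-4.23 ± 0.53). The tumors were on opposite sides of the pools for these 2 transporters. Pgk1, phosphoglycerate kinase, was 2.53-fold higher (1.34 ± 0.22) and Ldhb, the lactate dehydrogenase subunit of oxidative tissue, 2.07-fold (1.05 ± 0.30). Aldoa, the aldolase form of most tissues (-0.15 ± 0.20), was not called, nor was Ldha, the other lactate dehydrogenase subunit (-0.11 ± 0.23).

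Several enzymes that steer pyruvate and stored glucose fell. Pcx, which makes oxaloacetate from pyruvate, fell 14.2-fold (-3.83 ± 0.42, but -1.60 by another probe set). Pdk4, the kinase that shuts pyruvate dehydrogenase during fasting, fell 14.4-fold (-3.84 ± 0.50). Pygm, the glycogen phosphorylase of muscle, fell 26.3-fold, and Pfkfb3, which makes the activator of phosphofructokinase, 2.55-fold (-1.35 ± 0.32). Pygm belongs to the muscle list as well. After blocking on lot 4 genes were called higher and 2 lower, and Aldoc (5.46), Slc2a1 (3.19), Pgk1 (1.84) and Slc2a4 (-4.14) were among them. The count of higher genes was 3 without pool 40, where the call of Ldhb was lost.

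**Figure D3:**
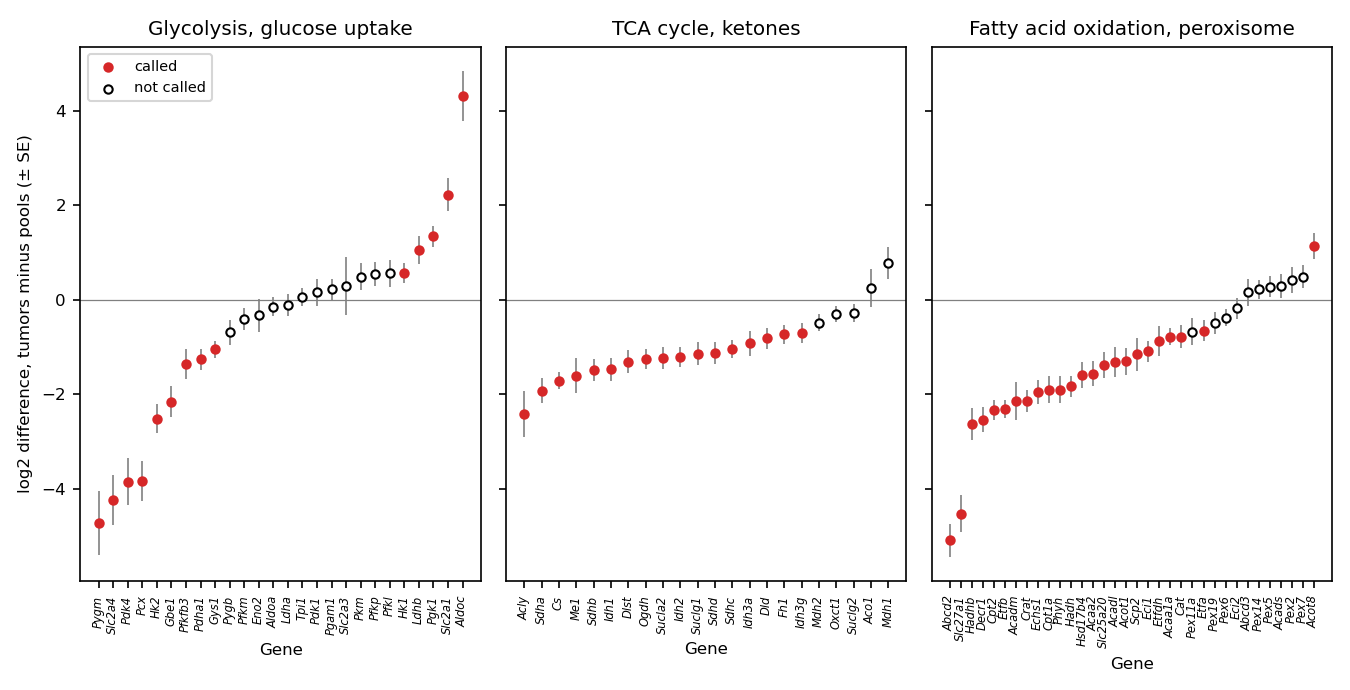
The log2 difference between tumors and pools (± SE) for every tested gene of 3 fuel lists, ordered within each list; red points were called and open points were not. The glucose list runs from Pygm to Aldoc across 0, while all 17 called genes of the TCA list lie below 0.

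Side branches of sugar and one-carbon metabolism were divided. Tkt, transketolase of the pentose phosphate pathway, fell, with 8850, 6693, 6132, 11410 and 11418 in the tumors and 28305, 40904 and 48947 in the pools (-2.16 ± 0.35), and Taldo1, its partner enzyme, fell 2.46-fold (-1.30 ± 0.20). Nme1, a nucleoside diphosphate kinase, rose 2.88-fold (1.52 ± 0.41), Mthfd2, a mitochondrial folate enzyme used by dividing cells, 2.51-fold (1.33 ± 0.34), and Prps2, which makes the ribose precursor of nucleotides, 2.75-fold (1.46 ± 0.37). In the whole list 5 of 26 genes were called higher (19.2%) and 6 lower (23.1%), against 15.8% and 14.7% of all genes. The count of lower genes was 3 without pool 42. With lot as a block 1 of the 26 was called. In the polyamine and methionine list 4 of 11 genes were called higher and 0 lower. Arg1, which cuts arginine into ornithine and urea, was at 4157, 3174, 13932, 4817 and 8158 in the tumors and 905, 726 and 813 in the pools (2.87 ± 0.51), and tumor 26 was highest. Ass1, which makes the precursor of arginine, was 2.52-fold higher (1.34 ± 0.33). Without tumor 26, tumor 52, pool 41 or pool 42 the count was 2. With lot as a block 0 of the 11 were called, and 3 of the 4 kept their direction. Arg1 belongs to the macrophage list as well.

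Genes that fold and export secreted proteins were called almost only on the higher side. The endoplasmic reticulum, where secreted and membrane proteins are folded and disulfide-bonded, had 10 of 21 genes called higher and 0 lower (median 0.68), or 47.6% against 15.8% of all genes. P4hb, the main protein disulfide isomerase, read 7796, 8292, 8781, 12446 and 5987 in the tumors and 2298, 1144 and 3052 in the pools (2.07 ± 0.27), while another probe set of the gene gave 0.21. Pdia4, another member of that family, read 6003, 5462, 5680, 5322 and 6794 in the tumors and 1776, 1968 and 2096 in the pools (1.59 ± 0.19), and here the pools and the tumors each lay in a narrow range. The list of signal peptide, translocon and coat proteins had 10 of 33 genes called higher and 1 lower (median 0.25). Lman1, a cargo receptor for glycoproteins leaving the reticulum, was 2.55-fold higher (1.35 ± 0.18). Under the lot block the medians were 0.79 and 0.44; 4 genes of the first list, Pdia4 among them, and 0 of the second were called.

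Hspa5, the chaperone BiP (0.79 ± 0.21), and Creld2 (0.68 ± 0.20; the call was lost without pool 40) were among the called genes, and Pdia6 was not (0.77 ± 0.34). Their promoters are shown because the reticulum stress element, CCAAT and CCACG separated by 9 bases, is the sequence through which ATF6 and XBP1 are known to act on this group. In RefSeq windows of 250 bases upstream of the start (build GRCm38.p6), searched on both strands, it was present in 35 of 27025 genes (0.13%) and in 6 of the 19 list members with a window (31.6%), namely in 2 of 9 called higher and in 4 of 10 not called. The 3 stretches below have the element in capitals.
Hspa5: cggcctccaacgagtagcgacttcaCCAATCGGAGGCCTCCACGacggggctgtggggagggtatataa
Creld2: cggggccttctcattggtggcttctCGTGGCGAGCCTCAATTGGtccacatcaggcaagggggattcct
Pdia6: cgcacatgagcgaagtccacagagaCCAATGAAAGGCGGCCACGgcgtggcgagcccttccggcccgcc
Hspa5 lies at chr2:34772000-34772068 on the plus strand, Creld2 at chr15:88819495-88819563 on the plus strand, where the element is read on the other strand, and Pdia6 at chr12:17266466-17266534 on the plus strand, all upstream of the start. Called and uncalled genes of the list both carried the element.

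Golgi enzymes that add sugars were called in both directions. Of 26 genes 7 were called higher (26.9%) and 3 lower (11.5%), against 15.8% and 14.7% of all genes (median 0.19). St6galnac4, which adds sialic acid to glycolipids and O-glycans, was 3017, 3932, 3449, 3208 and 1427 in the tumors and 517, 239 and 141 in the pools (3.46 ± 0.53; 1.32 by another probe set), and B4galt6, a lactosylceramide synthase, was 5342, 4057, 7443, 5030 and 4192 in the tumors and 584, 821 and 547 in the pools (2.99 ± 0.39). In both every tumor was above every pool. Galnt3, which starts O-glycans, rose 3.84-fold (1.94 ± 0.30). B3galt2, a galactosyltransferase, fell, with 48, 44, 55, 27 and 50 in the tumors and 1971, 2665 and 1571 in the pools, so that it was at the floor in every tumor (at least 19.9-fold). St3gal6 fell 4.74-fold and St8sia4 4.05-fold, both of them sialyltransferases. In the lot-blocked fit the median was -0.26, and 2 genes were called higher and 1 lower. The lower count was 5 without tumor 24.

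Protein synthesis itself moved little. Of 23 cytosolic ribosomal proteins 2 were called higher and 0 lower (median 0.23), of 23 nucleolar and ribosome biogenesis genes 1 higher and 0 lower (0.09), of 25 translation factors 2 and 2 (0.05), and of 30 proteasome genes 4 and 1 (0.09). All these shares are below those of all genes. The higher count of the proteasome list was 0 without pool 41 or pool 42, 1 without pool 40, tumor 22 or tumor 26, and 2 without tumor 50 or tumor 52. Eif4ebp1, the repressor of cap-dependent translation that mTOR switches off, was the largest change among translation factors, with 710, 1574, 1278, 1089 and 1743 in the tumors and 3968, 3803 and 3306 in the pools (-1.59 ± 0.28). It was lower in all 5 tumors. Of the aminoacyl-tRNA synthetases 4 of 19 were called higher and 0 lower (2 without pool 41 or pool 42), Farsb and Sars in front by 0.92 and 0.86.

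Calls of cell division genes were all on the higher side. The mitosis list had 13 of 37 genes called higher and 0 lower (median 0.76), and the replication list 7 of 38 higher and 0 lower (median 0.47), a share (18.4%) near the 15.8% of all genes. Prc1, which bundles microtubules of the midzone, read 2823, 2386, 2316, 2141 and 2041 in the tumors and 840, 661 and 938 in the pools (1.53 ± 0.35). Ect2, the exchange factor that starts the cleavage furrow, read 1584, 1512, 1180, 1326 and 950 in the tumors and 718, 450 and 460 in the pools (1.28 ± 0.28). In both genes all tumors were above all pools. Pole2, a subunit of DNA polymerase epsilon, was 2.52-fold higher (1.34 ± 0.44), although its call was lost without tumors 22, 24 or 52 or pools 41 or 42. The mitosis count was 8 without tumor 22 and 5 without pool 41, and the replication count was 4 without pool 41. Once lot was fitted, the medians were -0.28 for mitosis and 0.07 for replication, 0 genes of either were called, and 8 of the 13 kept their direction, while with the 2 similarly numbered lots joined the medians were 0.17 and 0.20. Array lot and group cannot be told apart for the mitosis calls.

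Genes of the G1 phase were called in both directions, 14.3% higher and 19% lower, near the 15.8% and 14.7% of all genes. Ccnd1, cyclin D1, which ErbB signaling is known to raise, was at 11330, 8085, 8324, 9973 and 5918 in the tumors and 4521, 3811 and 3509 in the pools (1.12 ± 0.24). Cdkn2c, which encodes the CDK inhibitor p18, was at 1834, 1845, 1693, 1841 and 1760 in the tumors and 6138, 8241 and 8948 in the pools (-2.10 ± 0.24), and the 5 tumors spanned only from 1693 to 1845. Cdkn1c, the inhibitor p57, fell 2.91-fold (-1.54 ± 0.44), a call lost without pool 40. E2f1, a factor that turns on S-phase genes, was 2.28-fold higher (1.19 ± 0.37), a call lost without pool 40 or pool 42. In the list 3 of 21 were called higher and 4 lower (median -0.02), and the lower count was 2 without pool 40. Ccnd3, another D-type cyclin, was among the latter (-0.70 ± 0.16), opposite in direction to Ccnd1. Cdkn2c alone was called with lot as a block (-2.13), and Ccnd1 had 1.12 there too.

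Cell death genes were mostly on the higher side. Of 31 genes of the BCL2 family, caspases and death receptors 11 were called higher and 2 lower (median 0.64). The inflammatory caspases led. Casp1, which matures interleukin-1 beta, gave 6371, 1992, 5386, 4454 and 5246 in the tumors and 829, 764 and 844 in the pools (2.43 ± 0.33), with tumor 24 lowest among the tumors. Casp12 was 3.84-fold higher (1.94 ± 0.32) and Casp4, known in mice as caspase-11, 3.24-fold (1.70 ± 0.27). Tradd, the adaptor of the TNF receptor, read 3328, 3771, 3006, 3837 and 3503 in the tumors and 1036, 730 and 2511 in the pools (1.49 ± 0.31), and pool 42 came near the tumors. Bnip3, a hypoxia-induced mitophagy receptor, fell, with 377, 1457, 705, 556 and 538 in the tumors and 2762, 3534 and 1853 in the pools (-2.01 ± 0.39), and Birc3, an inhibitor of apoptosis, fell 2.74-fold (-1.45 ± 0.42), the latter call being lost without pool 41 or pool 42. After blocking on lot the median was 0.51 and 2 genes were called higher and 0 lower. Among the p53 targets 4 of 20 were called higher and 4 lower, with Phlda3, a repressor of AKT, the largest fall at 6.72-fold (-2.75 ± 0.33).

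**Figure D4:**
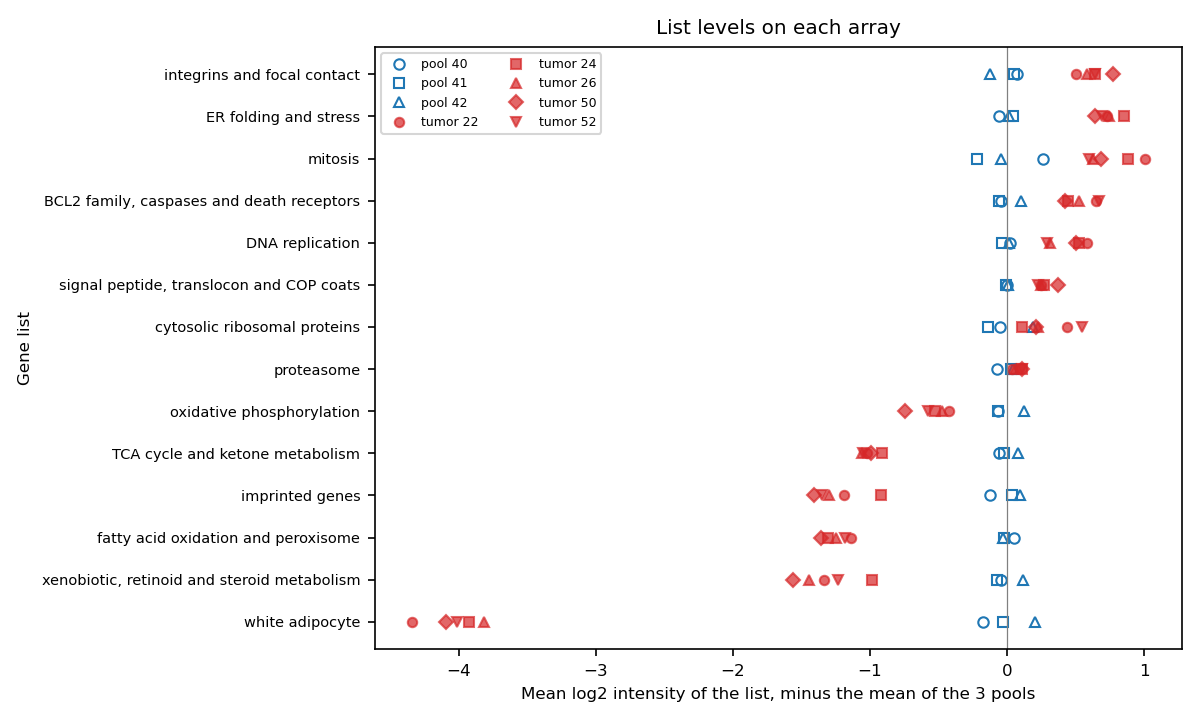
Mean log2 intensity of 14 gene lists on each array, minus the mean of the 3 pools; filled red symbols are the 5 tumors and open blue symbols the 3 pools. Tumors and pools lie apart for 12 of these lists, and overlap for ribosomal proteins and the proteasome. The 14 lists were picked for display, so this count does not stand for all lists. Among lists not shown, the interferon response (10.40 to 11.44 in tumors, 10.41 to 10.54 in pools) and luminal factors (10.94 to 11.44 and 10.63 to 11.09) overlap.

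Genes of cell contacts changed in both directions. Of 33 junction genes 10 were called higher and 6 lower (median 0.43). Dsg2, a cadherin of desmosomes, was 3933, 4036, 4017, 3378 and 3389 in the tumors and 986, 679 and 509 in the pools (2.42 ± 0.20). Its partner Dsc2 was 2396, 1520, 2522, 1303 and 1279 in the tumors and 269, 202 and 151 in the pools (3.10 ± 0.43, but 1.60 by another probe set). Cldn7, a tight junction protein, was 5784, 5804, 4857, 7749 and 4390 in the tumors and 1163, 1405 and 1510 in the pools (2.05 ± 0.22). All 3 were separate from the pools. Gja1, connexin 43 of myoepithelium and stroma, fell, with 1242, 5339, 1238, 740 and 1387 in the tumors and 12090, 10754 and 11211 in the pools (-2.89 ± 0.42), and tumor 24 kept the most. Gjb6, connexin 30, fell 5.49-fold (-2.46 ± 0.53). With lot as a block the median of the list was -0.17, and 3 genes, with Dsg2 and Cldn7 among them, were called higher.

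Integrin and focal contact genes had 12 of 26 called higher and 5 lower (median 0.78). Itgb4, the hemidesmosome integrin that is known to work with ErbB receptors, was 2.38-fold higher (1.25 ± 0.26), and Cd82, a tetraspanin, 3.22-fold (1.69 ± 0.18; 0.55 by another probe set). The lower count was 2 without pool 41 or pool 42. Among actin genes 10 of 42 were called higher and 4 lower (median 0.12). Actn4, an actin cross-linker, was 34647, 25463, 27011, 21216 and 23403 in the tumors and 4440, 4062 and 3825 in the pools (2.66 ± 0.26). Enah, which lengthens actin filaments at the cell edge, was 2039, 2137, 2469, 2803 and 3019 in the tumors and 449, 351 and 266 in the pools (2.83 ± 0.30, but 1.35 by another probe set). Gsn, which severs filaments and is plentiful in stroma and myoepithelium, fell, with 1434, 1977, 2070, 2740 and 2222 in the tumors and 67129, 68581 and 89611 in the pools (-5.19 ± 0.22). Thus 3 actin regulators differed without any overlap but in different directions. Under the lot block Actn4 (2.60) and Gsn (-4.87) were called, and Enah was not (1.74).

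Proteins of ion and water transport changed in both directions. Of 48 genes 17 were called higher and 11 lower (median 0.29). Car12, a carbonic anhydrase of the epithelial surface, read 5333, 2074, 4446, 7411 and 5297 in the tumors and 235, 248 and 286 in the pools (4.15 ± 0.46). Car8, a relative without enzyme activity, read 5083, 1004, 3223, 2943 and 1573 in the tumors and 262, 275 and 299 in the pools (3.09 ± 0.40). Tumor 24 was the lowest tumor in both, and still above the pools. Car3, the form of fat cells, fell by 6.47 on the log2 scale. Aqp1, a water channel of vessels and red cells, fell, with 88, 125, 40, 66 and 62 in the tumors and 3315, 7673 and 3999 in the pools (-5.46 ± 0.44), although a second probe set of the gene had 0.45 and was not called. Fxyd1, a regulator of the sodium pump in muscle and vessels, fell, with 906, 1433, 348, 621 and 384 in the tumors and 7262, 8367 and 10255 in the pools (-3.74 ± 0.38). The higher count was 11 without pool 40 and the lower count 7 without pool 41. In the lot-blocked fit 5 were called higher (Car12 and Kcnn4 among them) and 3 lower, and the list's median was -0.16.

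Feedback and early-response genes of the MAP kinase pathway had 9 of 27 called higher and 3 lower (median 0.45). Phlda1, which receptor tyrosine kinase signaling induces, gave 14094, 12388, 15317, 16994 and 30153 in the tumors and 5251, 2603 and 3304 in the pools (2.24 ± 0.31), and tumor 52 was highest. Nr4a1, an orphan nuclear receptor of the early response, gave 3102, 3917, 4694, 2842 and 2325 in the tumors and 1009, 630 and 553 in the pools (2.21 ± 0.38). Klf4, a factor of growth arrest and differentiation, fell, with 233, 294, 428, 378 and 718 in the tumors and 2018, 2096 and 2206 in the pools (-2.47 ± 0.32), and Egr2 fell 3.99-fold. Dusp1, a nuclear MAP kinase phosphatase, fell 2.14-fold (-1.10 ± 0.18). Dusp6, another phosphatase of this list, rose, with 28534, 23347, 27732, 29210 and 24196 in the tumors and 1989, 2474 and 2507 in the pools (3.52 ± 0.40). Dusp6 was also called with lot as a block (4.48). The list therefore did not move as one, and 2 of its genes were called higher and 1 lower with lot as a block (median 0.16). The lower count was 5 without tumor 52.

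In the insulin and IGF axis called genes went both ways. Irs2, which couples the insulin and IGF receptors to PI3 kinase, was 1430, 227, 1582, 1758 and 664 in the tumors and 115, 92 and 72 in the pools (3.09 ± 0.80), and 2 of the pools and none of the tumors were under the floor. Tumor 24 was the lowest. Ghr, the growth hormone receptor, was 618, 678, 402, 729 and 431 in the tumors and 8759, 9831 and 9793 in the pools (-4.09 ± 0.27). Igfbp4, which holds IGF-I in the tissue, was 321, 1310, 568, 1253 and 142 in the tumors and 5370, 8440 and 7359 in the pools (-3.71 ± 0.56; -1.07 by another probe set). Igf2r, which clears IGF-II, was 2.2-fold higher (1.14 ± 0.19), and Igfals, which joins the IGF binding complex of plasma, 2.74-fold (1.45 ± 0.33). In all, 3 of 13 genes were called higher and 3 lower (23.1% each, median 0.30), against 15.8% and 14.7% of all genes. The higher count was 5 without tumor 26. Ghr and Igfbp6 were called with lot as a block, and Irs2 had 4.42 without a call.

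Other receptors and ligands fell more often than they rose, with 7 of 38 called higher and 13 lower (median -0.11). Kit, the stem cell factor receptor of luminal progenitors, was higher, with 11237, 6333, 8582, 13774 and 18336 in the tumors and 2904, 3168 and 1903 in the pools (2.07 ± 0.41). Fgfr2, the FGF receptor of mammary buds, was lower, with 333, 1321, 734, 382 and 803 in the tumors and 6057, 5582 and 4331 in the pools (-3.07 ± 0.37). Vegfa, the main angiogenic factor, was lower in all 5 tumors, by 2.57-fold (-1.36 ± 0.38), a call lost without pool 41. The lower count was 7 without pool 41. Once lot was fitted 2 were called lower, and Fgfr2 was one of them. Tek (-2.32 ± 0.34) and Pdgfra (-3.02 ± 0.26) are members that also mark vessels and fibroblasts, and another probe set of Pdgfra had 0.56 without a call.

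Notch4, a Notch receptor, read 13839, 7706, 73241, 35673 and 30560 in the tumors and 2245, 3914 and 554 in the pools (3.84 ± 0.64), but a second probe set of the gene had the opposite sign and was not called. Hey1, a direct target of Notch signaling, read 8929, 5146, 10475, 15923 and 16297 in the tumors and 1223, 1719 and 1816 in the pools (2.74 ± 0.44). Wnt4, a progesterone-induced signal of the duct, fell, with 36, 77, 45, 41 and 47 in the tumors and 587, 229 and 860 in the pools (-2.26 ± 0.58), to under the floor in every tumor, a call lost without pool 42. In the Notch, Hedgehog and Wnt list 9 of 46 genes were called higher (19.6%) and 6 lower (13%). The shares of all genes were near these, at 15.8% and 14.7%. The list's median was 0.18, and its higher count was 5 without pool 41 or pool 42. After blocking on lot 0 of the 46 were called, at 3.65 for Notch4 and 3.09 for Hey1, and the median was -0.24.

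The inhibitors of differentiation, HLH proteins that block lineage factors, divided. Id2, which is needed for alveolar development in the mammary gland, rose, with 28106, 20708, 38653, 18877 and 28815 in the tumors and 6749, 5056 and 4210 in the pools (2.32 ± 0.23). Id1 fell, with 311, 511, 314, 326 and 157 in the tumors and 1911, 2010 and 1512 in the pools (-2.57 ± 0.35). Id3 fell as well, with 660, 680, 512, 461 and 475 in the tumors and 2487, 4298 and 3416 in the pools (-2.59 ± 0.27), and Id4, a gene of basal cells, fell, with 175, 546, 346, 108 and 107 in the tumors and 2697, 1883 and 1804 in the pools (-3.34 ± 0.51). Id2 was above every pool and the other 3 below every pool, and Id2 (2.05), Id3 (-2.47) and Id4 (-4.19) were called with lot as a block, while Id1 (-1.82) was not. Inhbb, a subunit of activin and inhibin, rose, with 3030, 1959, 3766, 6027 and 7484 in the tumors and 840, 1756 and 852 in the pools (1.89 ± 0.42), and Fst, follistatin, which binds activin, fell, with 47, 53, 46, 85 and 76 in the tumors and 413, 912 and 403 in the pools (-2.39 ± 0.48). All 5 tumors were under the floor for Fst. The TGF-beta and BMP list held 8 of 33 genes called higher and 10 lower (median -0.17).

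Among developmental transcription factors, Twist1 read 90, 84, 62, 90 and 63 in the tumors and 1408, 1582 and 2332 in the pools (-4.09 ± 0.29), under the floor in all tumors. Snai2 fell 3.92-fold (-1.97 ± 0.29). Zeb1 fell 4.4-fold (-2.14 ± 0.30), but its other probe set had 1.37 and was not called. These factors are known for epithelial-mesenchymal transition and are also expressed by fibroblasts and basal cells, whose lists had 31 of 45 and 10 of 16 genes called lower. Sox10, a factor of neural crest and mammary progenitor cells, rose, with 16202, 7994, 14079, 23117 and 23341 in the tumors and 4499, 4148 and 4122 in the pools (1.89 ± 0.31). Sox4 rose too, with 6123, 5841, 4985, 8366 and 6870 in the tumors and 2029, 1689 and 2018 in the pools (1.73 ± 0.19). The Schwann cell list, which contains Sox10, had 1 of 8 genes called higher and 2 lower. Pitx1, a homeobox factor, was 3.35-fold higher (1.74 ± 0.51), with a call lost without pool 40 or pool 41. Across the homeobox and developmental list 7 of 37 were called higher (3 without pool 41) and 9 lower.

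Of the luminal factors 8 of 22 were called higher and 4 lower (median 0.85). Lmo4, a cofactor that ErbB signaling is known to raise, was 34591, 20605, 30566, 23468 and 17620 in the tumors and 7320, 5206 and 4297 in the pools (2.17 ± 0.27). Tfap2c, an AP-2 factor of luminal cells, was 20293, 12968, 18978, 16898 and 25458 in the tumors and 4559, 5506 and 4381 in the pools (1.95 ± 0.29). Foxa1, a pioneer factor of luminal cells, fell 19.6-fold (-4.29 ± 0.37) and Cited1, a cofactor of the same cells, 8.16-fold (-3.03 ± 0.39). Cebpa, a factor of fat cells as well as epithelium, fell, with 2033, 3126, 3528, 3617 and 2342 in the tumors and 36840, 44934 and 44500 in the pools (-3.88 ± 0.29). With lot as a block 2 were called higher and 3 lower, the latter being Foxa1, Cited1 and Cebpa.

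Among detoxifying and vitamin A enzymes, calls were nearly all on the lower side. Of 30 genes of xenobiotic, retinoid and steroid metabolism 13 were called lower, 1 higher and 16 not at all (median -0.82). Cyp2e1, a cytochrome P450 for ethanol and ketones, read 1332, 1446, 1430, 948 and 1522 in the tumors and 45994, 34740 and 48407 in the pools (-5.01 ± 0.23). Hsd11b1, which regenerates active glucocorticoid, read 319, 483, 540, 396 and 323 in the tumors and 7886, 10220 and 10920 in the pools (-4.57 ± 0.29). Cyp1b1, which oxidises estradiol, read 251, 673, 109, 108 and 40 in the tumors and 5212, 2576 and 2271 in the pools (-4.10 ± 0.62). None of the tumors reached a pool in these 3 genes. Aldh1a1, a retinaldehyde dehydrogenase, fell 16.7-fold (-4.06 ± 0.29), with another probe set at 0.76 that was not called. With lot in the fit 8 genes, all among the 13, were called lower and 0 higher (median -0.70), the most lower calls of any process list.

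Antioxidant genes were mixed. Hmox1, heme oxygenase, was 7983, 11017, 9814, 18817 and 10296 in the tumors and 3185, 3376 and 2871 in the pools (1.82 ± 0.23), and Nqo1, a quinone reductase, was 3.3-fold higher (1.72 ± 0.51), a call lost without pool 40 or pool 42. Both are classical targets of NRF2. Gpx3, the secreted glutathione peroxidase, fell, with 1228, 3091, 1673, 2346 and 1072 in the tumors and 42665, 42612 and 42662 in the pools (-4.61 ± 0.32), and Gstz1, an enzyme of tyrosine breakdown, fell, with 3298, 2847, 2329, 2455 and 2304 in the tumors and 25844, 28653 and 28815 in the pools (-3.40 ± 0.16). Gpx2, the epithelial form, was 1429, 13638, 1158, 921 and 1363 in the tumors and 444, 487 and 613 in the pools (1.94 ± 0.64), with tumor 24 far above the rest and a call lost without any 1 of the pools. Of 39 genes 5 were called higher and 11 lower (median -0.32), the former 3 without pool 40 and 2 without pool 42. Under the lot block 2 genes were called lower and 0 higher.

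Imprinted genes, a group enriched in regulators of growth, had 8 of 18 called lower and 2 higher (median -0.55). Nnat, a membrane proteolipid expressed from the paternal copy, was 347, 82, 79, 53 and 227 in the tumors and 6638, 13521 and 8614 in the pools (-5.91 ± 0.55). Ndn, a paternally expressed growth suppressor, was 78, 263, 204, 78 and 92 in the tumors and 2041, 2059 and 3224 in the pools (-4.08 ± 0.37). Sgce, a sarcoglycan, was 429, 371, 279, 137 and 428 in the tumors and 4112, 5480 and 5493 in the pools (-4.03 ± 0.32). In the other direction Phlda2, a maternally expressed gene that limits placental growth, was 2148, 1236, 1684, 1109 and 540 in the tumors and 242, 373 and 416 in the pools (1.86 ± 0.43) and Igf2r was the other rise. Dcn, a matrix gene, is a member of this list too. In the lot-blocked fit 4 were called lower (median -0.98), with Nnat (-6.74), Ndn (-3.44) and Sgce (-3.41) in that number.

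Immunoglobulin genes gave some of the largest falls of all. Plasma cells around mammary ducts make the IgA that enters milk. Igha, the heavy chain of IgA, read 1049, 1501, 1344, 983 and 1029 in the tumors and 20423, 28907 and 39768 in the pools (-4.62 ± 0.41; -1.68 by another probe set). Jchain, which joins IgA into dimers, read 275, 386, 393, 289 and 419 in the tumors and 4601, 5528 and 5235 in the pools (-3.88 ± 0.34). The kappa variable gene Igkv6-23 read 600, 593, 1196, 838 and 669 in the tumors and 33328, 48764 and 86904 in the pools (-6.12 ± 0.54); since variable genes are alike, its probe set may also read others. Tumors were far below the pools in every one. The B and plasma cell list had 4 of 15 genes called lower, 1 higher and 10 not called (median -0.04). Its summed intensity, to which Igha added more than any other gene in the pools, was 8120 to 10886 in the tumors and 34177 to 53959 in the pools. Jchain was called with lot as a block (-2.88), and Igha was not (-3.08).

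The mast cell proteases Cma1 and Cpa3 were low in the tumors. Cma1, mast cell chymase, was 180, 818, 471, 122 and 421 in the tumors and 3831, 5331 and 5192 in the pools (-3.87 ± 0.49), and Cpa3, mast cell carboxypeptidase, was 9, 22, 105, 12 and 198 in the tumors and 1089, 1070 and 1999 in the pools (-3.50 ± 0.41). Neither overlapped with the pools. Antigen presentation by MHC class II fell for 4 of 13 genes, with 2 called higher (0 without pool 40 or pool 42). H2-Aa, a class II chain, was 3852, 10428, 2150, 8384 and 9828 in the tumors and 16581, 20912 and 19650 in the pools (-1.69 ± 0.48), a call lost without pool 41 or pool 42, and 0 of the 4 lower calls of that list held without either pool (2 without pool 40 or tumor 26). MHC class I genes had 2 of 16 called higher and 2 lower. The macrophage list had 3 of 25 called higher (1 without any 1 of the pools) and 4 lower, and the lower count was 7 without tumor 24 and 2 without pool 42. The T cell markers Cd3d, Cd3e, Cd3g and Cd8a did not pass the filter in either tissue.

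Chemokines fell more than they rose, 9 of 23 called lower and 5 higher (median -0.31). Cxcl1, which draws neutrophils, rose, with 1407, 1345, 911, 1919 and 1888 in the tumors and 53, 221 and 263 in the pools (3.00 ± 0.34). Ccl11, eotaxin, fell, with 37, 203, 154, 120 and 418 in the tumors and 1051, 1044 and 1235 in the pools (-2.67 ± 0.48). Cxcl9, a T cell attractant that interferon-gamma induces, fell, with 26, 193, 265, 142 and 41 in the tumors and 939, 889 and 971 in the pools (-2.64 ± 0.47). Ccl5 fell, with 159, 83, 113, 100 and 540 in the tumors and 1635, 1211 and 814 in the pools (-2.89 ± 0.82), a call lost without pool 40. The higher count was 3 without tumors 22 or 26 or pools 40 or 41. Once lot was fitted 1 gene, Cxcl1 (3.13), was called. Lcn2, a siderophore-binding protein of neutrophils and epithelium, rose, with 83051, 78912, 65513, 90450 and 95457 in the tumors and 10222, 12618 and 13202 in the pools (2.78 ± 0.30, but 1.05 by another probe set). Lbp, which hands lipopolysaccharide to its receptor, rose, with 15154, 16372, 10683, 23853 and 14352 in the tumors and 3119, 3197 and 3766 in the pools (2.21 ± 0.25). Hp, haptoglobin, fell, with 1168, 2497, 3704, 1452 and 1478 in the tumors and 10064, 15297 and 11590 in the pools (-2.69 ± 0.44). Of the complement and acute-phase list 4 of 26 were called higher and 6 lower.

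Interferon-stimulated genes had 13 of 40 called higher and 4 lower (median 0.41). The tumors did not share this evenly. The list's mean log2 level was 11.11, 11.44 and 11.36 in tumors 24, 26 and 52, but 10.40 in tumor 22 and 10.63 in tumor 50. In the pools it was 10.41, 10.54 and 10.49, so tumor 22 was not above any pool. Irf7, the factor that amplifies type I interferon, read 1357, 2396, 4571, 2133 and 3332 in the tumors and 618, 753 and 715 in the pools (1.87 ± 0.35). Iigp1, a GTPase induced by interferon-gamma, read 4099, 11689, 10728, 11770 and 19780 in the tumors and 2303, 3941 and 2544 in the pools (1.86 ± 0.41), and tumor 22 lay close to pool 41. Irf1 fell, with 1996, 2064, 1213, 1996 and 3128 in the tumors and 3841, 4317 and 3367 in the pools (-0.94 ± 0.26), a call lost without pool 41. The count of interferon genes called lower was 2 without pool 40 or pool 42 and 1 without pool 41. After blocking on lot 4 were called higher, Irf7 (2.93) among them, and the median was 0.61.

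The promoters of 4 called members are shown because the interferon-stimulated response element, 2 copies of GAAA separated by 2 bases, is the sequence by which promoters of this group are known. In the same upstream windows of 250 bases, on both strands, it was present in 936 of 27025 genes (3.46%) and in 10 of the 33 list members with a window (30.3%), namely in 4 of 10 called higher and 6 of 23 others. Capitals mark every copy, overlapping ones included.
Ifit1: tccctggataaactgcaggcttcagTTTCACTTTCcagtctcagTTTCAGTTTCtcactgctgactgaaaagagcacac
Isg15: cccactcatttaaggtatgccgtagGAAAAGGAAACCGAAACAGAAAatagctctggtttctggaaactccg
Irgm1: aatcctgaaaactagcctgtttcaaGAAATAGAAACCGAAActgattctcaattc
Gbp3: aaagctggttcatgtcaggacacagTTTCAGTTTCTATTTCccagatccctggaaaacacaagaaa
The Ifit1 stretch lies at chr19:34640760-34640838 (plus strand), that of Isg15 at chr4:156200850-156200921 (minus strand), that of Irgm1 at chr11:48871421-48871475 (minus strand) and that of Gbp3 at chr3:142559974-142560039 (plus strand). Isg15, a ubiquitin-like protein that tags other proteins, was 3.61-fold higher (1.85 ± 0.38), Irgm1, a GTPase of autophagy, 3.57-fold (1.84 ± 0.30) and Gbp3, a guanylate-binding protein, 2.85-fold (1.51 ± 0.37). Gbp2 (-0.47 ± 0.39) and Ifit3 (0.92 ± 0.52) carry the element too and were not called.

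Cytosolic chaperones and nuclear receptors were called about as often as all genes, and 2 clock genes were called. Hspa2, a heat shock protein 70 best known from testis, rose, with 1074, 402, 1055, 1422 and 1120 in the tumors and 112, 200 and 330 in the pools (2.27 ± 0.51), and Hspb8, a small heat shock protein of muscle, fell, with 841, 1320, 952, 591 and 970 in the tumors and 4870, 5716 and 5866 in the pools (-2.60 ± 0.26). Counts in the heat shock list were 6 of 35 higher (2 without pool 42) and 5 lower. In the clock list 1 of 16 was called higher and 1 lower. Among nuclear receptors Nr1h3, the oxysterol receptor LXR-alpha, fell 11.9-fold (-3.57 ± 0.26), beside 4 of 25 called higher and 5 lower. The higher count was 2 without tumor 24 or pool 42 and 1 without pool 41, and the lower count was 3 without tumor 26 or pool 41 and 2 without pool 40 or pool 42. Annexins and S100 proteins, calcium-binding proteins of membranes and stroma, had 8 of 17 called lower (5 without pool 42) and 1 higher, and Anxa2 read 9830, 10071, 6770, 13589 and 8702 in the tumors and 23438, 28061 and 33403 in the pools (-1.55 ± 0.28).

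With lot as a block the median changed sign for 19 of the 57 process lists and for 5 of the 15 cell type lists, and with the similarly numbered lots joined for 8 and 2. Among those given above, the lists that changed sign in the first of these fits were mitosis, oxidative phosphorylation, glycolysis, glycosyltransferases, junctions, ion transport, the Notch list, nucleolar genes, nuclear receptors, p53 targets, MHC class II, heat shock, clock, macrophage, B and plasma cell and Schwann cell genes. Skeletal muscle genes had a larger fall with the block (median -5.54 against -3.00), and the brown adipocyte list a smaller one (-0.32 against -2.85).

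**Figure D5:**
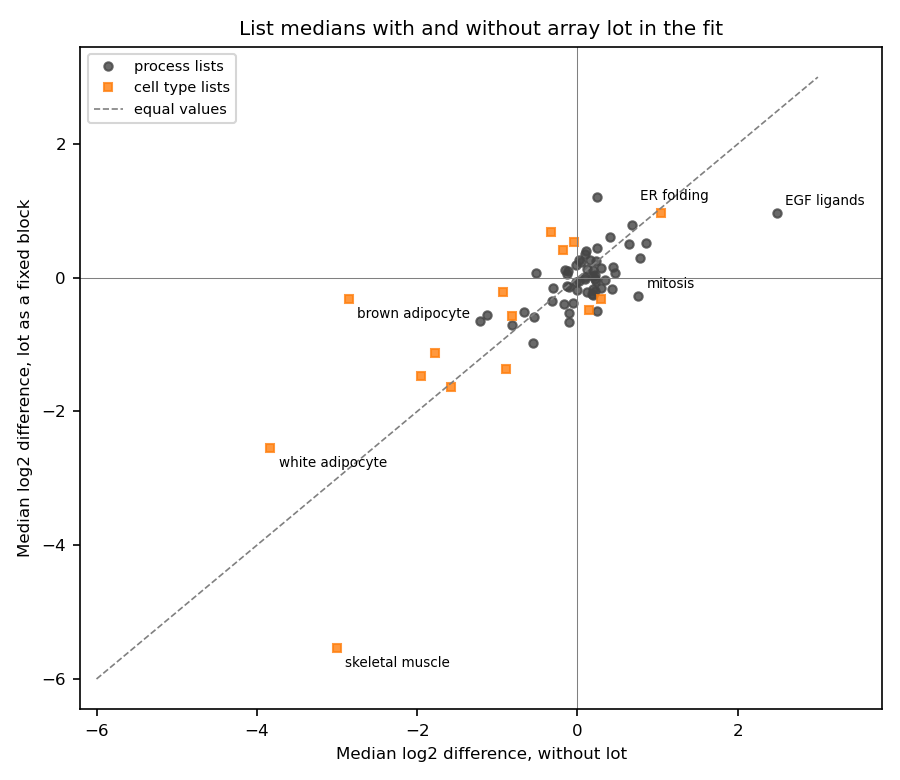
Median log2 difference of each gene list without lot in the fit (horizontal axis) and with lot as a fixed block (vertical axis), for 57 process lists (circles) and 15 cell type lists (squares); the dashed line marks equal values. The mitosis list lies at 0.76 and -0.28, and the ER folding list at 0.68 and 0.79.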

How the data were processed

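RNA of each sample had been hybridised to a 1-color oligonucleotide array, and the values deposited by the authors are intensities on a linear scale with 1 value per probe set. The sources used here do not name the software behind them. The deposited intensities had a trimmed mean (2% cut at each end) of 1500.8 to 1500.9 on each of the 8 arrays, so they were scaled before deposit. Medians were 578 to 708. Precision is set by how few arrays there are.

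Values under the 20th percentile of all values were raised to it (101), log2 was taken, and probe sets above the 40th percentile on at least 3 arrays were tested, which left out 3806 of the non-control probe sets. A model with 4 groups over all 14 arrays was fitted with limma 3.58.1 in R 4.3.3, with Benjamini-Hochberg adjustment over 8616 probe sets, and ± denotes the standard error. A gene is represented by 1 probe set. Probe sets with several genes (396) or none (1237) in the platform annotation were not named. Lot was not in the model as fitted, and lots, scalings, floors, filters and left-out arrays were tried as alternatives. The script was tested on simulated data.

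The comparison, the gene lists and the tests were chosen with earlier results of these data known. Named genes were the called, non-overlapping genes with the 20 largest rises and 20 largest falls outside the fat, stroma, vessel and muscle lists, up to 4 called members per direction of each process list, up to 3 of each cell type list, genes at the floor in 1 group, and the 10 called genes with the widest range among tumors. Not every such gene is named. Aldoa, Ldha, Hspa5, Creld2, Pdia6, Isg15, Irgm1, Gbp2, Gbp3 and Ifit3 were named after their values were seen. Promoter windows were those of RefSeq.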

Additional observations from a re-analysis of the deposited data

Results flagged for a closer look

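For 20 of the 174 genes named (Dusp6 was not counted), 1 tumor lay far from the other 4. Its gap to its nearest neighbor was above 0.71 of the range of log2 values after the floor. Chance gives about 1 in 20 groups such a gap. Because the named genes were chosen in part for a wide range among the tumors, the count of 20 cannot be set against that rate. Tumor 24 was the distant one for 8 genes: its intensity was 125 for Aqp1, 800 for Epha2, 302 for Gnai1, 13638 for Gpx2, 402 for Hspa2, 19170 for Kcnn4, 900 for Ndufa1 and 178 for Pygm. For Aqp1, Gnai1 and Pygm, and for Gjb6 below, the other tumors were all under the floor of 101, so these gaps rest on the floor. Tumor 52 was distant for 5 genes, with 540 for Ccl5, 198 for Cpa3, 572 for Igfbp6, 429 for Phlda3 and 1427 for St6galnac4. Tumor 50 had 129 for Aoc3, 948 for Cyp2e1 and 1140 for Dusp1. Tumor 22 had 5865 for Me1 and 7803 for Tspan8, and tumor 26 had 109 for Gjb6 and 12220 for Pgk1. In each of these genes all 5 tumors were still on the same side of the 3 pools. Tumor 24 also had the highest mean log2 level for the fibroblast list (10.62, other tumors 9.70 to 9.96). The same held for the muscle list (8.93, others 7.75 to 8.32) and the macrophage list (11.49, others 10.47 to 11.11). For the white adipocyte list it lay within the others (9.84, others 9.42 to 9.95). The part of tissue makeup in these gaps was not tested.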

How the results depend on the processing

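Fitting lot as a fixed block changed the counts most, while with lot as a random block 2043 probe sets and 1565 genes were called. By the lot numbers as labelled the fixed block compares the groups only through the gland beside the tumors. The part of that indirect comparison in the lower counts was not tested. With lot as a fixed block 360 probe sets and 279 genes were called, and with 2 lots of similar number taken as the same lot 921 probe sets and 723 genes, against 2574 and 1956 without lot. Leaving out 1 array at a time gave 1774 to 2512 probe sets and 1353 to 1896 genes, the fewest without pool 42. Under the other alternatives the counts were within 1.5 times: a random lot block, either tumor lot alone, the 8 arrays alone, the fit without set B, quantile normalization, median centring, floors, filters and the choice of probe set. Among the 169 called genes named (Dusp6 was not counted), none changed direction under any of these where it was tested. The direction of named genes without a call was not followed. Of the 169 named genes that were called, 154 were called in every fit without 1 array, 69 with lot as a fixed block, 119 with the lots joined and 149 with the tumors of lot 2004097 alone. Rises made up 51.8% of called genes, 46.6% after median centring, 43.3% with tumors of lot 2004097 alone, 40.8% with the lots joined and 35.8% with lot as a fixed block, and the median of all genes was 0.13, 0.07, 0.08, 0.02 and -0.02 in the same order. No paired analysis was possible because the labels give the groups no shared replicate numbers. Calls of 1 or 2 genes in a list often came or went with a single array.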
